A study of Mus musculus with 14 samples.

Results

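Oxidative phosphorylation is carried out by 5 protein complexes of the inner mitochondrial membrane. Most of their subunits are encoded in the nucleus. The genes described here are the 89 nuclear genes, of 55291 in the count files, whose symbols match the names of subunits of complexes I to V (Nduf, Sdh, Uqcr, Cyc1, Cox4 to Cox8 and Atp5). A further 10 matching symbols carry the pseudogene suffix "-ps" and were left out. The annotation also lists 4 of the 89 genes as processed pseudogenes (Cox6c2, Ndufb4c, Ndufs6b and Ndufa11b), and these were kept. The symbols place 40 genes in complex I, 4 in complex II, 9 in complex III, 19 in complex IV and 17 in complex V. The rule reads names alone, and it was set with earlier results of these data known.

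Bulk RNA-Seq was performed on 14 samples of mouse esophagus from 9 C57BL/6 mice. Epithelium was sequenced from 5 aged mice (O1, O2, O3, OF5 and OM8; at least 18 months old per the labels) and 4 young mice (Y1, Y3, YF5 and YM4; at most 4 months old). Stroma, the layer peeled from the epithelium, was also sequenced in 5 of these animals, aged O1, O2 and O3 and young Y1 and Y3. No genetic change or treatment is given for any group, and each sample carries the code of 1 mouse. The p-values below measure the spread between these animals, and the comparison of layers counts both layers of 5 mice as separate samples.

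Electrons from NADH enter the respiratory chain at complex I and those from succinate at complex II. They pass through complex III to complex IV, cytochrome c oxidase, which reduces oxygen. Complex V, ATP synthase, uses the proton gradient built up along the way to make ATP. In striated muscle, several small subunits of complex IV exist as muscle isoforms that replace widely expressed partners: Cox6a2 for Cox6a1, Cox7a1 for Cox7a2 and Cox8b for Cox8a. The mouse esophagus has a wall of skeletal muscle, so the layer peeled from the epithelium can be read for these isoforms.

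Total counts ranged from 8217516 to 21867101 per sample. In the 4 mice with epithelium only (OF5, OM8, YF5 and YM4), the 89 genes together had 3513 to 3968 counts per sample, against 44853 to 97722 counts in the other 10 samples. Normalized counts below are CPM after TMM scaling, as computed for the comparison of layers. On that scale, 3 counts are worth 0.707 to 1.25 in these 4 samples and 0.0872 to 0.175 in the others. The layers carried the markers of their labels: all 8 epithelial markers were higher in epithelium, and all 12 skeletal muscle markers were higher in stroma. The summed normalized counts of the muscle markers ran from 169 to 1855 in epithelium and from 42353 to 76538 in stroma. Fewer cells of a type and less RNA per cell cannot be told apart in such bulk samples.

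The promoters of the isoform pairs are shown first, because these pairs carry the largest differences between the layers. Each window runs from 250 bases before to 50 bases after the RefSeq start, 5′ to 3′ along the gene, in GRCm38.p6. Capitals mark any of 6 motifs on either strand: CTTCCG (the core of ETS family sites), GCGCATGCG (a site of nuclear respiratory factor 1), GGGCGG (a GC box), CCAAT (a box bound by nuclear factor Y), TATAAA (a core promoter element) and CAGCTG (an E-box bound by myogenic factors). The windows are Cox7a1 (chr7:30183921-30184220, plus strand), Cox7a2 (chr9:79759804-79760103, minus strand), Cox8b (chr7:140900397-140900696, minus strand), Cox8a (chr19:7217567-7217866, minus strand) and Cox6a1 (chr5:115348909-115349208, minus strand).
Cox7a1: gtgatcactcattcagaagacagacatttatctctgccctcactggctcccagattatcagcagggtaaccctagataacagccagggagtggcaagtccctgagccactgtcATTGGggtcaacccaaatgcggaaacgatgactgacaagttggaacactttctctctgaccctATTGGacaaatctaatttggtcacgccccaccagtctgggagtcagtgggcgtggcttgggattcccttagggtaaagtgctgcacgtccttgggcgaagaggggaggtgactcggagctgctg
Cox7a2: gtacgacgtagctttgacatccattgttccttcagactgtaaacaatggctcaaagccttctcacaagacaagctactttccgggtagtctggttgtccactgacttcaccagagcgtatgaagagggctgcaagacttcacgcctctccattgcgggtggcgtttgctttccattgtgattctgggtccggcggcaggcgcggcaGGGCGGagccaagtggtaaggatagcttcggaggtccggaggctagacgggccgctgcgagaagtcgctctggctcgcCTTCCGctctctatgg
Cox8b: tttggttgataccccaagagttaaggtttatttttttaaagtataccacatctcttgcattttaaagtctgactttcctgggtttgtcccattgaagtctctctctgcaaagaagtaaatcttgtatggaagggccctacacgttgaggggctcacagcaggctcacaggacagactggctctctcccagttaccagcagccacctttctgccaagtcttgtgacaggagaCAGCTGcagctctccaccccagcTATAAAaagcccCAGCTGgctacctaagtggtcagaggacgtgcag
Cox8a: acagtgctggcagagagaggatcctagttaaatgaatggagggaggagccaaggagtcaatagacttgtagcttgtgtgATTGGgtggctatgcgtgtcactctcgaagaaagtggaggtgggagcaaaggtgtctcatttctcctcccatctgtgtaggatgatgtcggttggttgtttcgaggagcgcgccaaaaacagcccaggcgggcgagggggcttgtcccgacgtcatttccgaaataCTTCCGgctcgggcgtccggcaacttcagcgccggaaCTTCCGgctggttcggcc
Cox6a1: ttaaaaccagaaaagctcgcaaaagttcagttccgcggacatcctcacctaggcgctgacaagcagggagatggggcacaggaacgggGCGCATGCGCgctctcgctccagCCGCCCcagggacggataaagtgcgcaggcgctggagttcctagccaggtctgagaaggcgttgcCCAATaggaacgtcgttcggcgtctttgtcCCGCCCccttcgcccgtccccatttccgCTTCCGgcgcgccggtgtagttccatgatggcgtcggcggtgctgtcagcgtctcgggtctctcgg

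No window is shown for Cox6a2, so the letters compare 2 muscle isoforms with 3 widely expressed ones. CTTCCG occurred in the windows of Cox7a2, Cox8a and Cox6a1 and not in those of Cox7a1 and Cox8b. Only the Cox8b window among these 5 held TATAAA and CAGCTG, the latter at 2 places. TATAAA began 4 bases after the RefSeq start, and CAGCTG began 19 bases before it and 16 bases after it. The Cox8b window had 2 CpG dinucleotides and the Cox7a1 window 7, whereas Cox7a2 had 20, Cox8a 19 and Cox6a1 32. Windows were found for 68 of the 89 symbols, 73 windows in all, and their median CpG number was 19 against 7 over 32851 windows of all genes. Counted from the lowest CpG number of the 73, Cox8b ranked 1 and Cox7a1 ranked 3.

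CTTCCG stood in 39.7% of the member windows and in 16.9% of all windows, and GCGCATGCG in 11.0% and 1.75%. The shares were closer for GGGCGG (39.7% and 35.7%), CCAAT (42.5% and 37.4%) and TATAAA (12.3% and 13.6%). CAGCTG stood in 8.22% of the member windows and 16.3% of all windows. These letters overlap in Cox6a1, where GCGCATGCG matches both strands 1 base apart. A match is a description of the sequence only, and no binding was measured.

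Most of the oxidative phosphorylation genes had lower normalized counts in epithelium than in stroma. Of the 85 members that passed the filter on low counts, 78 were lower in epithelium, 2 were higher and 5 did not pass the threshold (edgeR's quasi-likelihood test, Benjamini-Hochberg adjusted p below 0.05). Over all 16791 genes tested, 30.1% were called lower in epithelium and 26.1% higher. Where the average log2 CPM was 5 or more, 26 of 26 members and 29.4% of all genes were called lower. The median log2 fold change of epithelium over stroma was -1.36 for the members and -0.05 for all genes. The members called lower include Cox6c2 (-1.53) and Ndufb4c (-1.89), which are listed as processed pseudogenes.

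The size of the difference was similar for most members. The middle range of log2 fold changes (first to last quartile boundary) was -1.65 to -0.99, 54 members were 2-fold to 4-fold lower, and 4 were more than 8-fold lower. Every epithelial sample lay below every stromal sample for 62 of the 85 members, against 16.9% of all genes. Without the 4 mice that have epithelium only, 78 members were called lower and 3 higher, with a median of -1.17.

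**Figure D1:**
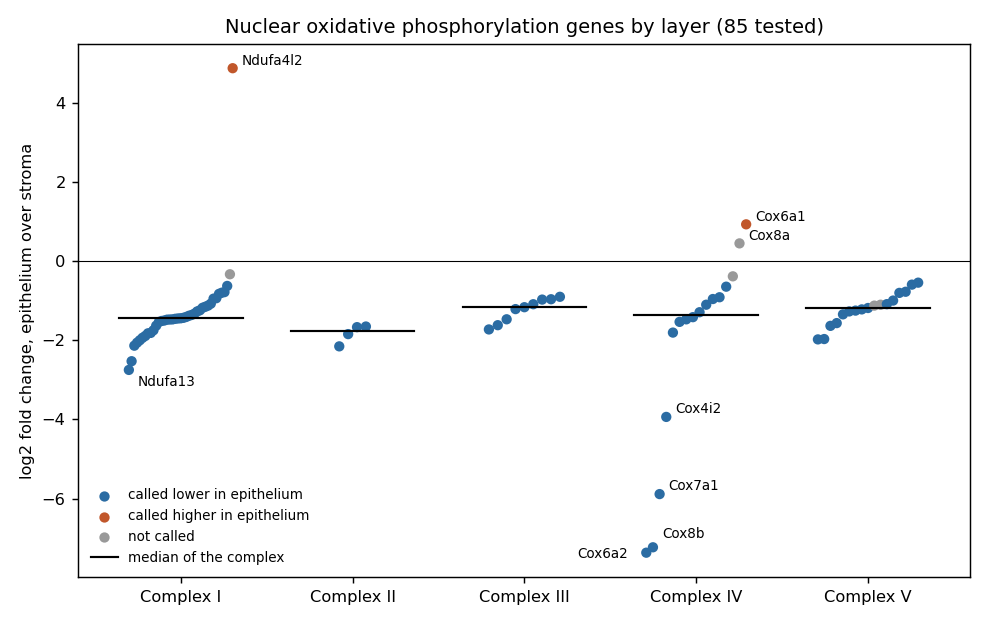
Each point is 1 of the 85 tested members, placed by complex, with the log2 fold change of epithelium over stroma on the vertical axis. Bars mark the median of each complex. Most points lie between -2.75 and -0.54, the muscle isoforms of complex IV lie at or below -5.89, and Ndufa4l2 stands alone at 4.89.

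All 5 complexes were shifted in the same direction. The median log2 fold change was -1.44 for complex I (39 tested), -1.75 for complex II (4), -1.16 for complex III (9), -1.35 for complex IV (16) and -1.18 for complex V (17). Called lower were 37, 4, 9, 13 and 15 members, respectively. Without Cox6a2, Cox7a1 and Cox8b, the median of the remaining 82 members was -1.33.

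The summed normalized counts of all 89 members came to 1512 ± 319 for epithelium (SD, n = 9) and 3906 ± 396 for stroma (SD, n = 5), 2.58 times higher in the latter. The sum in stroma over that in epithelium was 2.63 for complex I, 3.52 for complex II, 2.38 for complex III, 2.83 for complex IV and 2.34 for complex V. For each complex, the lowest stromal sample lay above the highest epithelial sample. Within the 5 mice with both layers, the sum over all members was 1.92 to 2.85 times higher in stroma.

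The epithelial samples fell into the sets of mice given by their codes. The sum was 1737 ± 160 (SD, n = 5) in the epithelium of mice O1, O2, O3, Y1 and Y3 and 1231 ± 219 (SD, n = 4) in that of the 4 mice with epithelium only. The 4 libraries differed in more than depth. Nuclear protein-coding genes had 1020645 to 1387335 of their 8217516 to 9399448 counts, against 7907702 to 10977885 of 16477424 to 21867101 in the other epithelial samples. Their epithelial markers summed to 16828 to 27493 normalized counts, against 41130 to 53453. The part of depth and of this composition in the lower member sums was not tested. As a share of all nuclear protein-coding counts, the members took 0.477 to 0.567% in the first set, 0.286 to 0.344% in the second and 1.18 to 1.31% in stroma.

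**Figure D2:**
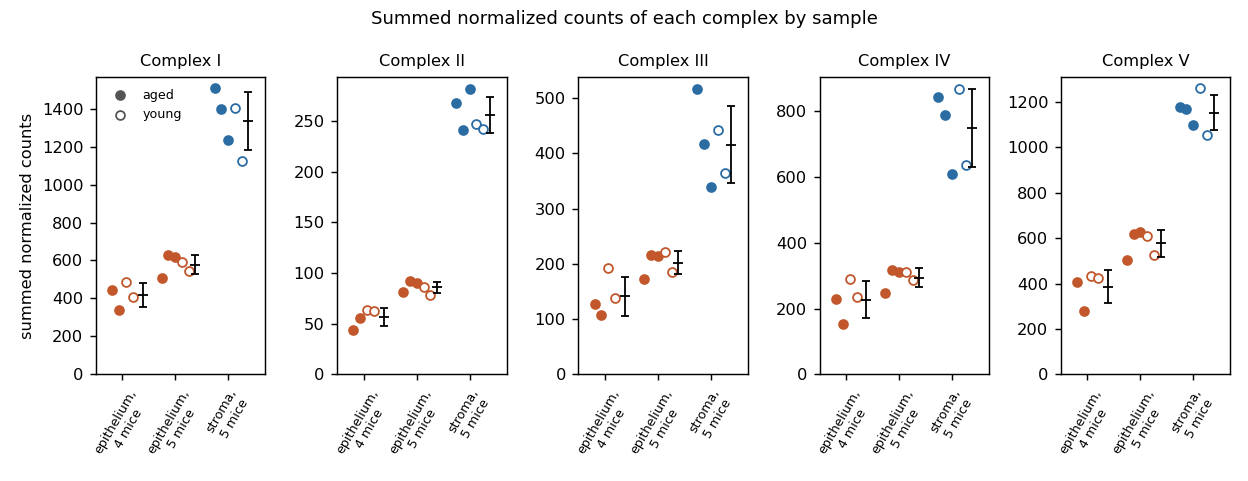
Summed normalized counts of the members of each complex in every sample, with filled points for aged and open points for young mice, and the mean ± SD beside each set. In all 5 panels the stromal samples lie above both sets of epithelial samples, and aged and young points are mixed in stroma.

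Complex I oxidizes NADH and is the largest of the complexes. Ndufs1, the largest iron-sulfur subunit of its core, had 10.3, 24.3 and 27.5 normalized counts (lowest, median and highest of 9) in epithelium, while stroma had 40.9 to 60.03. The log2 fold change was -1.17 (SE 0.18, adjusted p = 1.33e-05, edgeR). Ndufv1, which binds the flavin that accepts electrons from NADH, had 17.7, 30.3 and 37.5 normalized counts in epithelium and 52.8 to 86.0 in stroma (log2 fold change -1.24, SE 0.20). For both core subunits, the layers did not overlap.

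The largest decrease in complex I was that of Ndufa13, also known as GRIM-19, an accessory subunit. It had 8.49, 15.2 and 17.5 normalized counts in epithelium and 106, 105, 80.4, 102 and 67.6 in the stroma of O1, O2, O3, Y1 and Y3. The log2 fold change was -2.75 (SE 0.19, adjusted p = 1.55e-10, edgeR), which is 6.71-fold. Ndufa5 followed at -2.53 (SE 0.20). Ndufs6b, which the annotation lists as a processed pseudogene, was at 0 to 1.04 normalized counts in epithelium and 0.205 to 1.44 in stroma and was not called (log2 fold change -0.33, adjusted p = 0.695).

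Ndufa4l2 was the single complex I member called higher in epithelium. It is a paralog of Ndufa4 that is known as a target of hypoxia-inducible factor, and both are grouped with complex I here by name, although Ndufa4 is held to be a subunit of complex IV. Ndufa4l2 (chromosome 10, 127514967 to 127517154, plus strand, GRCm38) had 24.6, 40.9 and 65.5 normalized counts in epithelium. In stroma it had 3.56 in O1, 1.36 in O2, 1.30 in O3, 1.14 in Y1 and 0.512 in Y3. Every epithelial sample was above every stromal sample, and the log2 fold change was 4.89 (SE 0.39, adjusted p = 4.43e-09, edgeR).

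Ndufa4 itself was lower in epithelium. It had 13.7, 30.9 and 47.5 normalized counts in epithelium and 33.3 to 63.3 in stroma (log2 fold change -0.62, SE 0.21, adjusted p = 0.0171, edgeR), and the layers overlapped. Without mouse O1, its log2 fold change was -0.49 with an adjusted p of 0.0805. Per exon length, Ndufa4l2 made up 50.4 to 75.3% of the Ndufa4l2 and Ndufa4 counts in epithelium and 1.41 to 6.62% in stroma.

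Ndufa4l2 shares 32 exonic bases with Shmt2, a mitochondrial enzyme gene on the opposite strand. Epithelium had 16.3 ± 5.09 normalized counts of Shmt2 (SD, n = 9) and stroma 11.96 ± 2.50 (SD, n = 5), with a log2 fold change of 0.48 (adjusted p = 0.0681, edgeR). Ndufa4l2 had more counts than Shmt2 in all 9 epithelial samples and fewer in all 5 stromal samples. Whether strand was used in counting is not given in the sources used here, and 26 of the 89 members share exonic bases with a gene on the opposite strand.

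Complex II links the tricarboxylic acid cycle to the chain, and all of its 4 subunits are nuclear. Sdha, the flavoprotein subunit, had 29.6, 40.1 and 47.6 normalized counts in epithelium and 138, 124, 129, 114 and 115 in the stroma of O1, O2, O3, Y1 and Y3. Its log2 fold change was -1.66 (SE 0.15, adjusted p = 8.13e-09, edgeR). Sdhb, the iron-sulfur subunit, had the largest decrease of the complex at -2.15 (SE 0.22), and Sdhd, a membrane anchor, the smallest at -1.65 (SE 0.20). None of the 4 genes overlapped between the layers.

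Complex III passes electrons from ubiquinol to cytochrome c. Uqcrfs1, the Rieske protein, had 14.5, 24.2 and 27.5 normalized counts in epithelium and 45.1 to 54.8 in stroma (log2 fold change -1.09, SE 0.15), and Cyc1, cytochrome c1, had 8.96, 18.5 and 24.9 against 42.3 to 65.7 (log2 fold change -1.47, SE 0.19). Neither gene overlapped between the layers. The range over the complex ran from -1.72 (SE 0.21) for Uqcrq, a ubiquinone-binding subunit, to -0.90 (SE 0.19) for Uqcrc1, a core protein. All 9 genes were called lower in epithelium.

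Complex V makes ATP. Atp5b, the catalytic beta subunit, had 90.0, 189 and 235 normalized counts in epithelium and 390 to 424 in stroma (log2 fold change -1.22, SE 0.22). Atp5a1, the alpha subunit, had 31.1, 52.3 and 67.5 against 81.1 to 97.6 (log2 fold change -0.77, SE 0.18). Both were separated between the layers. Atp5c1, the gamma subunit of the central stalk, fell most, from 111 to 146 normalized counts in stroma to 20.5 to 42.2 in epithelium (log2 fold change -1.97, SE 0.19). Atp5d, the delta subunit, fell least (-0.54, SE 0.17, adjusted p = 0.0107, edgeR), and with mouse as a block it did not pass the threshold (adjusted p = 0.0538).

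The membrane ring of complex V is encoded by 3 genes for the same mature protein. Atp5g3 was the most abundant of them, at 21.8 ± 5.84 (epithelium, SD, n = 9) and 50.1 ± 7.603 normalized counts (stroma, SD, n = 5), with a log2 fold change of -1.18 (SE 0.18). Atp5g1 had 2.14 ± 0.51 and 5.29 ± 3.04 (log2 fold change -1.25, SE 0.33). Its adjusted p was 0.00307 in edgeR and 0.079 with mouse as a block. Atp5g2 had 0.871 ± 0.585 and 1.96 ± 1.52 and was not called (log2 fold change -1.12, SE 0.63), and neither was Atp5l (-1.10, SE 0.54), a gene of the membrane part with 0 to 5.13 normalized counts.

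Complex IV showed the widest spread, because isoforms of the same subunit differed. Its common subunits fell: Cox4i1 had 28.3, 50.8 and 56.9 normalized counts in epithelium and 94.3 to 135 in stroma (log2 fold change -1.29, SE 0.17), and Cox5a had 5.51, 15.03 and 17.5 against 29.4 to 57.9 (-1.47, SE 0.21). Cox6b1 (-0.95, SE 0.20), Cox7b (-0.91, SE 0.21) and Cox7a2l, a factor for supercomplexes (-0.64, SE 0.15), fell less. None of these 5 genes overlapped between the layers. The sum over complex IV without Cox6a2, Cox7a1 and Cox8b came to 263 ± 53.1 for epithelium (SD, n = 9) and 569 ± 88.1 for stroma (SD, n = 5), 2.16 times higher in the latter.

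The muscle isoforms were close to absent from epithelium. Cox6a2 (chromosome 7, 128205435 to 128206387, minus strand) had 115 normalized counts in the stroma of O1, 96.1 in O2, 66.4 in O3, 104 in Y1 and 88.4 in Y3. In epithelium, its lowest, median and highest values were 0, 0.273 and 1.66. The log2 fold change was -7.37 (SE 0.42, adjusted p = 7.84e-11, edgeR).

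Cox8b (chromosome 7, 140898945 to 140900446, minus strand) behaved alike. It had 75.8 normalized counts in the stroma of O1, 70.1 in O2, 48.6 in O3, 65.7 in Y1 and 52.5 in Y3. In epithelium it had 0, 0.212 and 0.994 (log2 fold change -7.23, SE 0.36, adjusted p = 5.33e-12, edgeR). No count of Cox6a2 or Cox8b was found in the epithelium of OF5, YF5 and YM4, where a count of 0 allows up to 3 counts.

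Cox7a1 (chromosome 7, 30184144 to 30186078, plus strand) was the lowest of the muscle isoforms in stroma. It had 22.3 normalized counts in the stroma of O1, 19.2 in O2, 16.3 in O3, 35.0 in Y1 and 20.96 in Y3, and 0, 0.283 and 1.25 in epithelium. The log2 fold change was -5.89 (SE 0.40, adjusted p = 1.25e-10, edgeR). For all 3 genes the layers did not overlap, and the stroma of O3 had the lowest value.

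Their widely expressed partners did not share this pattern. Cox6a1 (chromosome 5, 115345642 to 115348981, minus strand) was higher in epithelium, with 11.3, 25.1 and 33.1 normalized counts against 13.01, 15.3, 16.0, 10.01 and 13.8 in the stroma of O1, O2, O3, Y1 and Y3. Its log2 fold change was 0.94 (SE 0.21, adjusted p = 0.000625, edgeR), and the single epithelial sample that overlapped stroma was OM8.

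Cox8a (chromosome 19, 7215153 to 7217616, minus strand) had 11.8, 26.7 and 32.0 normalized counts in epithelium and 14.5 to 20.9 in stroma. It was not called over the 14 samples (log2 fold change 0.45, SE 0.21, adjusted p = 0.0738, edgeR). With mouse as a block it was higher in epithelium (log2 fold change 0.74, adjusted p = 0.00235), and the same 10 samples without the block gave 0.73. Leaving out OM8 or YM4 also placed it past the threshold (log2 fold change 0.54 and 0.51). Cox7a2 (chromosome 9, 79755361 to 79759878, minus strand) had 9.19, 12.8 and 16.3 in epithelium and 9.18 to 23.9 in stroma and was not called (-0.38, SE 0.20, adjusted p = 0.106, edgeR). Without mouse O3 it was -0.56 with an adjusted p of 0.0149.

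As a share of each pair per exon length, the muscle isoform predominated in stroma. Cox6a2 made up 90.1, 86.6, 81.1, 91.5 and 86.9% of the Cox6a2 and Cox6a1 counts per length in the stroma of O1, O2, O3, Y1 and Y3, and 0 to 5.22% in epithelium. Cox8b made up 90.0, 85.2, 83.7, 85.8 and 82.5% of its pair in stroma and 0 to 5.49% in epithelium. Cox7a1 made up 70.3, 58.7, 75.8, 78.1 and 70.2% of its pair in stroma and 0 to 11.95% in epithelium. The highest epithelial share of Cox7a1, that of YF5, rested on 3 counts.

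The ratio of the isoforms was tested over samples. The mean log2 ratio of muscle isoform to partner was higher in stroma than in epithelium by 8.86 for Cox6a2/Cox6a1, 5.79 for Cox7a1/Cox7a2 and 8.06 for Cox8b/Cox8a (9 against 5 samples, 0.5 added to each count). Each gave p = 0.000999 in a two-sided exact permutation test, the smallest p these 14 samples allow, and 0.000999 after Benjamini-Hochberg adjustment over the 3 pairs. Within the 5 mice with both layers, the mean difference was 8.63 ± 1.63, 5.63 ± 0.78 and 8.03 ± 1.37 (SD, n = 5), with the same direction in 5 of 5 mice for each pair.

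**Figure D3:**
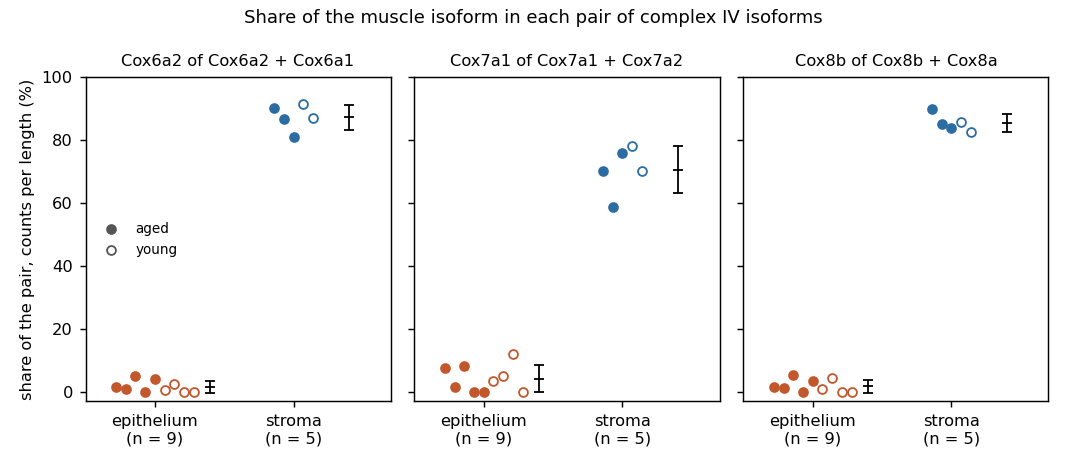
Share of the muscle isoform in each pair, computed from counts per exon length (vertical axis, percent), in every epithelial and stromal sample, with filled points for aged and open points for young mice and the mean ± SD beside each layer. Stromal shares run from 58.7 to 91.5% and epithelial shares from 0 to 11.95%.

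The combined level of each pair was also higher in stroma. Cox6a2 plus Cox6a1 reached 37.4 ± 9.36 normalized counts per kb in epithelium (SD, n = 9), against 158 ± 24.99 for stroma (SD, n = 5). Cox8b plus Cox8a had 39.8 ± 12.2 and 203 ± 32.1, and Cox7a1 plus Cox7a2 had 14.2 ± 2.84 and 60.1 ± 15.7. For each pair, the lowest stromal sample was above the highest epithelial sample.

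On the scale of normalized counts per kb of exon, the order of the members differed between the layers. The lengths are unions of all annotated exons, 360 bases for Cox8b, 680 for Cox6a2 and 4237 for Atp5b. A union can be longer than the transcript present, so the order within a layer depends on the annotation. In stroma, Cox8b ranked first of 88 members by mean with 174 ± 32.2 and Cox6a2 second with 138 ± 27.0 (SD, n = 5). Their ranges over samples overlapped, but both were measured in the same samples, and their order within samples was not compared. Atp5b came next with 96.5 ± 3.81. In epithelium, Atp5b (41.5 ± 12.4), Ndufa4l2 (41.3 ± 12.8), Cox8a (39.0 ± 11.8) and Cox6a1 (36.8 ± 9.17) led by mean (SD, n = 9). The means of these 4 genes lay within each other's SD over samples, and their order within samples was not compared. Ndufa4l2 ranked second of 88 in epithelium and 81 in stroma.

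**Figure D4:**
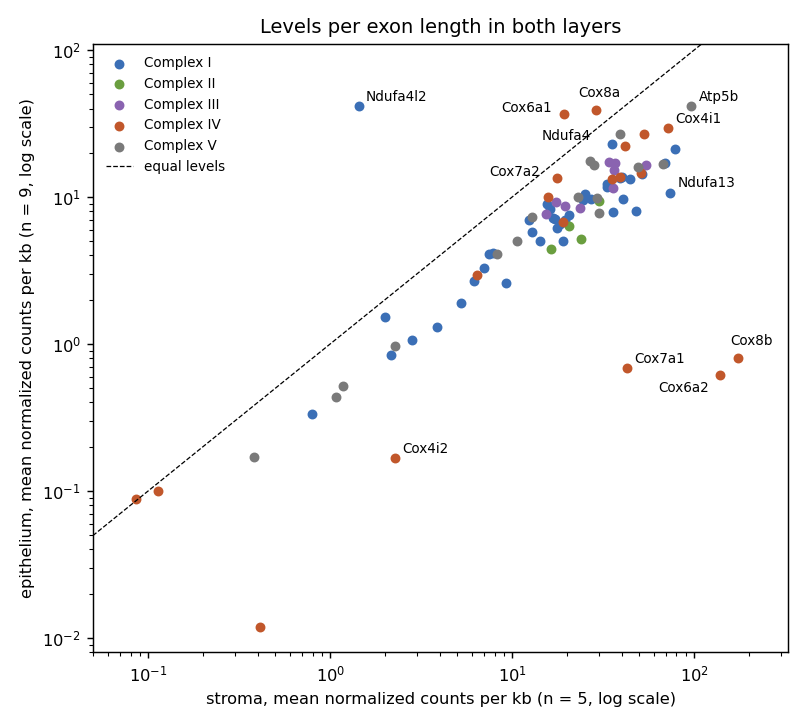
Mean normalized counts per kb of exon for the members in stroma (horizontal axis, log scale, n = 5) and epithelium (vertical axis, log scale, n = 9), coloured by complex. The dashed line marks equal levels. Most members lie below the line, with Cox8b, Cox6a2 and Cox7a1 far below it and Ndufa4l2, Cox8a and Cox6a1 above it. Cox8c, at trace levels in both layers, is also above it.

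Traces of skeletal muscle RNA were found in epithelium. Acta1, skeletal muscle actin, was found in epithelium at 0.0147 to 3.91% of its stromal mean, with a median of 0.515%. The same measure had a median of 0.290% for Cox6a2, 1.24% for Cox7a1 and 0.339% for Cox8b, whereas that of Cox4i1 was 45.4% and that of Sdha 32.3%. In O3, Acta1 was at 2.37%, Cox6a2 at 1.76% and Cox8b at 1.59%. In YF5, Acta1 was at 3.91% and Cox7a1 at 5.49%, whereas Cox6a2 and Cox8b had no count in this thin library. The part that muscle RNA has in the epithelial counts of the isoforms was not tested.

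Other isoforms of complex IV were rare. Cox4i2, an alternative to Cox4i1, had 1.52, 1.19, 4.02, 1.496 and 0.709 normalized counts in the stroma of O1, O2, O3, Y1 and Y3 and 0 to 0.346 in epithelium (log2 fold change -3.94, SE 0.67, adjusted p = 4.23e-05, edgeR). Per exon length it made up 1.46 to 7.73% of the Cox4i2 and Cox4i1 counts in stroma. Cox6b2, Cox7b2 and Cox8c, which are known from testis, and Ndufa11b, a pseudogene, did not pass the filter in the comparison of layers. Their highest normalized count in any sample was 1.11, for Cox7b2.

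Some members share sequence with pseudogenes that were counted apart. Cox5b-ps had 39.3 ± 7.68 normalized counts in stroma (SD, n = 5), and Cox5b had 56.3 ± 5.91. Their log2 fold changes were -1.39 and -1.41. The 10 excluded symbols together had 1.399 to 2.68% as many counts as the members. Ndufab1, a complex I subunit outside the naming pattern, was lower in epithelium (log2 fold change -1.20, SE 0.20, adjusted p = 2.88e-05, edgeR). How reads that match several genes were counted is not given in the sources used here, so levels of members with close copies are uncertain.

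Genes that belong with the members in mitochondria differed in how far they moved with the layers. All 13 mitochondrially encoded subunits were lower in epithelium (median log2 fold change -2.35), from mt-Nd2 (-3.08, SE 0.40) and mt-Nd4l (-3.06, SE 0.51) to mt-Co2 (-2.07, SE 0.47) and mt-Atp8 (-1.76, SE 0.40). Stroma had a sum of 17884 to 39948 normalized counts over these genes. The sum was 4638 to 12316 in the 4 thin epithelial libraries and 1997 to 3237 in the other 5. Between the sets of epithelial samples, this order of normalized counts is opposite to that of the nuclear members. All mitochondrially encoded genes, a larger set than the 13 subunits, took 1.53 to 6.24% of total counts in the 4 thin libraries. They took 2.67 to 4.89% in the other 5 and 15.5 to 27.9% in stroma. For this larger set, as a share of total counts, the sets of epithelial samples overlapped. The share of the 13 subunits alone was not computed. Of 13 enzymes of the tricarboxylic acid cycle, 12 were lower in epithelium and 1 was not called (median -1.44). Idh3a (-2.04, SE 0.15) was among those that fell, and Ogdh (-0.97, SE 0.17) and the citrate synthase gene Cs (-0.60, SE 0.19) fell least of those called.

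Genes for building mitochondria were less uniform. Of 43 tested assembly factors, 24 were lower in epithelium, 1 was higher and 18 were not called (median -0.78). Sdhaf4 (-2.21, SE 0.32) and Ndufaf5 (-2.10, SE 0.42) fell most, Timmdc1 least of those called (-0.50, SE 0.20), and Acad9, a complex I assembly factor, was higher (2.48, SE 0.20). Sco2 and Pet117 were listed at 0 in every sample. Of 77 tested mitochondrial ribosomal proteins, 25 were lower in epithelium, 0 were higher and 52 were not called (median -0.46). The share called lower is close to the 30.1% of all genes. Over all genes, however, 26.1% were called higher, and the median was -0.05. Those called ran from Mrps28 (-1.70, SE 0.29) and Mrps21 (-1.69, SE 0.25) to Mrpl37 (-0.64, SE 0.17) and Mrpl17 (-0.49, SE 0.19).

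Among 16 other abundant mitochondrial proteins, 9 were lower, 1 was higher and 6 were not called (median -0.56). Here too isoforms diverged: the ADP/ATP carrier of muscle and heart, Slc25a4, was lower in epithelium (-4.38, SE 0.23), and its widely expressed relative Slc25a5 was higher (1.44, SE 0.28). Vdac3 (-2.28, SE 0.22) and Phb2 (-0.47, SE 0.16) were lower. Of 14 regulators of mitochondrial biogenesis, 7 were lower, 2 were higher and 5 were not called (median -0.69). Esrrg (-4.89, SE 0.40) and Esrrb (-4.76, SE 0.64), estrogen-related receptors, fell most, and Ppara (0.99, SE 0.25) and Pprc1 (0.67, SE 0.19) were higher.

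Markers of other tissues of the stroma differed in how far they moved with the layers. Lower in epithelium were 2 of 4 tested cardiac muscle markers, 2 of 5 smooth muscle markers, 3 of 4 brown adipocyte markers, 6 of 6 adipocyte markers, 3 of 6 fibroblast markers, 4 of 4 endothelial markers, 3 of 4 leukocyte markers and 5 of 5 markers of Schwann cells and neurons. Myl7, a cardiac marker, was the only one of these called higher. Over all genes tested, 30.1% were called lower. Of the fibroblast and of the smooth muscle markers, 3 each were not called, and the list medians were -0.61 and -0.89. The summed normalized counts of the cardiac markers were 28.4 to 60.3 in stroma, and those of the brown adipocyte markers 8.46 to 27.7, against 42353 or more for the skeletal muscle markers. The part of each cell type in the members' counts was not tested. With the skeletal muscle markers left out of the normalization, 78 members were still called lower and 2 higher.

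Age was compared within stroma, in 3 aged and 2 young samples. None of the 86 tested members was called (edgeR's quasi-likelihood test), 0 had an unadjusted p below 0.05, and DESeq2 called 0. Over all 21323 genes, 0.0% were called, with 776 at an unadjusted p below 0.05 by edgeR and 2 called by DESeq2. The median log2 fold change of aged over young was 0.04 for the members and -0.01 for all genes, and 79 of the 86 members lay within 1.5-fold. Leaving out 1 mouse moved the member median to between -0.10 (without Y3) and 0.16 (without Y1), and without O1 it was -0.02. The median standard error of a member was 0.29.

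The summed normalized counts overlapped between the ages. The sum over all members was 3963 ± 377 in aged stroma (SD, n = 3) and 3821 ± 563 in young stroma (SD, n = 2), and the ages overlapped in each of complexes I to V. Aged and young stroma did not overlap for 10 of the 86 members, 8 of them higher and 2 lower in aged mice. Over all genes tested, 20.6% did not overlap.

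The members with the smallest unadjusted p in stroma were Ndufa5, Cox7a1 and Ndufv1. Ndufa5, an accessory subunit of complex I, had 58.9, 51.2 and 59.0 normalized counts in aged stroma (O1, O2 and O3) and 45.0 and 33.0 in young stroma (Y1 and Y3). The groups did not overlap, and the log2 fold change was 0.52 (SE 0.25, adjusted p = 1.0 from edgeR). Ndufv1 had 70.1, 63.2 and 86.0 against 52.8 and 60.7 (log2 fold change 0.36, SE 0.24).

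None of the muscle isoforms was called by age. Cox7a1 had 22.3, 19.2 and 16.3 normalized counts in aged stroma and 35.0 and 20.96 in young stroma (log2 fold change -0.55, SE 0.31). Cox6a2 made up 81.1 to 90.1% of its pair in the 3 aged samples and 86.9 and 91.5% in the 2 young ones. The same shares were 83.7 to 90.0% against 82.5 and 85.8% for Cox8b, and 58.7 to 75.8% against 70.2 and 78.1% for Cox7a1. All 3 shares overlapped between the ages.

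No gene of any marker list was called by age in stroma (edgeR). The sums of 2 lists did not overlap between the ages, and 3 against 2 samples fail to overlap in 20% of cases by chance. The summed normalized counts of the smooth muscle markers were 941, 2051 and 816 in aged stroma and 303 and 600 in young stroma, while those of Schwann cell and neuron markers were 13.9, 22.1 and 37.4 against 63.8 and 46.8. Those of the skeletal muscle markers were 76538, 53462 and 42353 against 67380 and 53190, and overlapped, as did the sums of the cardiac, adipocyte, brown adipocyte, fibroblast, endothelial, leukocyte and epithelial markers. Their part in the age values of the members was not tested.

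**Figure D5:**
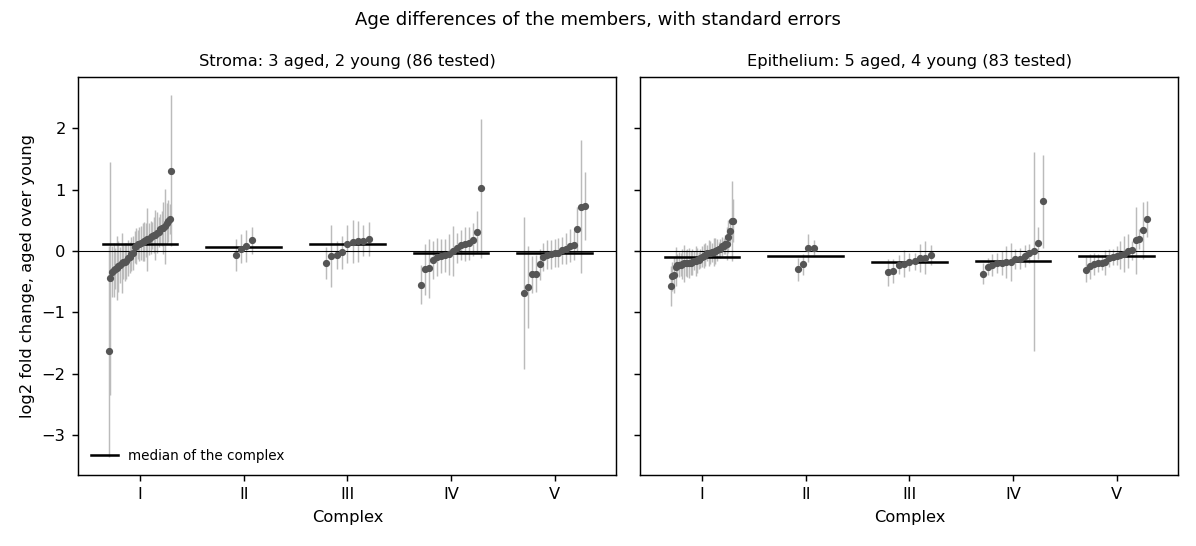
Log2 fold change of aged over young for each tested member, by complex, in stroma (left) and epithelium (right), with the standard error as a bar and the median of each complex as a line. The medians lie between -0.18 and 0.12, and the widest bars belong to members with few counts.

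Age in epithelium was compared in 5 aged and 4 young samples, adjusted for whether the mouse also gave stroma. None of the 83 tested members was called by edgeR, 0 had an unadjusted p below 0.05, and DESeq2 called 0, whereas 0.0126% of all 15859 genes were called (509 at an unadjusted p below 0.05, and 28 called by DESeq2). The median log2 fold change was -0.12 for the members and -0.003 for all genes. Of the 83 members, 62 were negative, and the share of negative values over all genes was not counted. The member median was -0.02 without OM8, -0.05 without YF5, -0.08 without O1, -0.19 without Y3 and -0.02 in the 5 mice with both layers. The smallest unadjusted p values were those of Cox6c (-0.37, SE 0.18), Cox4i1 (-0.26, SE 0.14) and Ndufa4l2 (0.32, SE 0.17), all with an adjusted p of 1.0 (edgeR). Of all nuclear protein-coding counts, the members took 0.477, 0.563 and 0.567% in O1, O2 and O3 and 0.525 and 0.528% in Y1 and Y3. In the mice with epithelium only they took 0.343 and 0.286% in OF5 and OM8 and 0.344 and 0.321% in YF5 and YM4, and the ages overlapped in both sets.

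The difference between the layers was not found to change with age. In the interaction of age and layer over the 10 samples of 5 mice, 0 of 86 members were called by edgeR and 0 by DESeq2, and 0.0% of 22771 genes were called by edgeR. Over all genes, 979 had an unadjusted p below 0.05, and DESeq2 called 62. A single member, Ndufa5, had an unadjusted p below 0.05 (interaction -0.80, SE 0.34, adjusted p = 1.0 from edgeR). Ndufs6b (2.29, SE 1.43) and Ndufa9 (0.42, SE 0.29) followed. In simulated data, 0 of 80 genes with an interaction of log2 size 1 were recovered, 5 of 51 at size 2 and 17 of 69 at size 3. Changes of all these sizes may therefore go unseen.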

How the data were processed

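Bulk RNA-Seq counts of 9 epithelial and 5 stromal samples were analysed, grouped by the labels' tissue, age and mouse code. Libraries were made from mRNA enriched with oligo(dT) beads. The values are raw gene-level counts, deposited by the authors after alignment to GRCm38.p6 with Rsubread and counting with featureCounts; the submitters' processing notes name bcl2fastq. Annotation release, strand setting and treatment of reads with several matches are not given in the sources used here. Positions, gene types and exon lengths (union of exons) were taken from GENCODE M21, in which 88 of the 89 members were found, and promoters from RefSeq (GRCm38.p6).

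The members and the gene lists were chosen with earlier results of these data known. Counts were fitted with edgeR 4.0.16 in R 4.3.3 (TMM, filterByExpr with a minimum count of 10, robust glmQLFit) across all genes, with a Benjamini-Hochberg threshold of 0.05, and DESeq2 1.42.0 as an alternative. Layers were compared over 14 samples without a covariate; the study's methods name DESeq2 for this comparison and state no covariate or pairing. The 5 mice with both layers are paired by their code. Deviations of the layers of one mouse from their group means correlated with r = 0.111, 0.039, 0.098, 0.101 and 0.101 for O1, O2, O3, Y1 and Y3, across genes. The values of Y1 and Y3 are equal by construction, because each layer has 2 young samples. Layers of different mice were not correlated, so these values do not test the pairing. Isoform ratios were compared by exact permutation (scipy 1.17.1). Standard errors were derived from the fold change and the F statistic of the fit. Members of each isoform pair, core subunits, extremes of each complex, members called higher or not called, and the 3 members with the smallest p by age were named by rule, as were the 2 largest and 2 smallest called changes of each mitochondrial list, of which 1 gene is not reported here. Cox5b, Cox5b-ps, Ndufab1, Ndufa7, Shmt2, Acta1 and Myl7 lie outside this rule and were chosen after their values were seen. Cox6c2 and Ndufb4c were named for their annotation as processed pseudogenes. Alternatives changed the tool, normalization, filter, samples, block and covariate. Replicates of each group differed by more than sampling noise (chi-square per degree of freedom of 11.96 or more). In a test on simulated data with 200 changed genes, 121 were recovered between layers (9 false calls) and 33 by age in stroma (5 false calls). In the real comparison of layers, 9441 of 16791 genes were called. The simulated layers differ from this setting, so their false calls do not measure those of the real comparison. Of genes simulated at a log2 change of 1, 0 of 61 were recovered by age in stroma and 36 of 59 by age in epithelium. By age in stroma, 6 of 62 were recovered at a log2 change of 2 and 27 of 77 at 3. In the interaction, 22 of 200 changed genes were recovered (2 false calls), with 0 of 80 at a log2 change of 1.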

Additional observations from a re-analysis of the deposited data

Results flagged for a closer look

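Of 66 groups of 33 members tested for a sample far from the rest of its layer on the log2 scale, 5 had one, and chance gives about 1 in 20. All 5 were low values in epithelium of aged mice with epithelium only. In OF5, Ndufs1 had 10.3 normalized counts (18.3 to 27.5 in the other epithelial samples) and Cox5a 5.51 (12.9 to 17.5). In OM8, Cox6a1 had 11.3 (23.8 to 33.1), Cox7b 11.1 (21.7 to 34.2) and Uqcrq 13.7 (23.5 to 40.4). The members together had 3645 counts in OF5 and 3968 in OM8, and 3513 in YF5 and 3668 in YM4, where no value stood apart. The cause was not tested.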

How the results depend on the processing

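The count of members called lower in epithelium ran from 61 to 80 over 20 alternatives and that called higher from 2 to 3. The lowest, 61 of 64, came when every sample had to reach 10 counts, where fewer members were tested; against a fold change of 1.5, 68 were lower and 2 higher. Without the filter it was 74 of 89. DESeq2 called 79 lower and 2 higher. With mouse as a block (replicate block, 10 samples), 75 members were lower and 3 higher, with a median of -1.12: Atp5d, Atp5g1 and Ndufa7 (log2 fold change -0.90, adjusted p = 0.0548) were lost, Cox8a was gained, and no other call of a member changed. Over all genes the median log2 fold change was -0.05 in the 14 samples and 0.14 with the block. Leaving out each mouse in turn gave 77 to 80 members lower and 2 to 3 higher. For Ndufs6b, the same runs gave -0.71 to 0.23, with the positive value without Y1 and no call. Without O1, Atp5g2 was called (-1.45), and without O3 Atp5l was (-1.34). Cox7a2 was also called with upper quartile normalization (-0.48), and Cox8a also without the mitochondrially encoded genes (0.47). By age and in the interaction, 0 members were called under each alternative run. The differences in isoform ratio ran from 7.39 to 9.28 for Cox6a2/Cox6a1, 4.33 to 6.02 for Cox7a1/Cox7a2 and 6.49 to 8.29 for Cox8b/Cox8a; the 5 within-mouse differences alone cannot go below p = 0.0625 in an exact permutation test. The cause of the changed calls was not tested. Depth limits members under about 3 counts in the thin epithelial samples, and 3 against 2 stromal samples limit the comparison of ages.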
